A study of Mus musculus with 25 samples.

Results

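The comparison is of control thymocytes 24 h after an injection of anti-CD3e, an antibody to the CD3e chain of the antigen receptor, against the same cells of uninjected mice (0 h). Its members are the genes with a mean of at least 10 normalized counts over the 6 libraries, leaving out those located on the sex chromosomes X and Y. There were 13499 of them among the 48795 genes of the table. The genes just outside and just inside this minimum had means of 9.996 and 10.01, and 459 genes above it were left out for their position. The 24 h group and the 0 h group were each 3 mice of 7 to 8 weeks, of the genotype Wnk1fl/+/CD2Cre/Rag1KO. Injected mice received 150 µg of anti-CD3e into the peritoneum. All these mice, injected or not, lacked *Rag1* and so could not rearrange antigen receptor genes, and all carried a Cre transgene driven by the human CD2 promoter, active in lymphoid cells, and 1 intact allele of *Wnk1*, the gene of a kinase that controls ion transport. The rest of the series holds the same genotype at 3 h and 48 h and Wnk1fl/fl/CD2Cre/Rag1KO mice, whose thymocytes lack WNK1, at all 4 times (25 libraries in all). RNA was taken from thymocytes sorted as Thy1.2+ CD44-, which keeps cells of stages DN3 and DN4, and polyadenylated RNA was sequenced.

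Early thymocytes carry neither CD4 nor CD8 (double negative, DN). At the DN3 stage they depend on Notch signals, express the recombinase genes and make the pre-TCR, a receptor of a rearranged β chain, the invariant pre-Tα chain and the CD3 chains. A signal from it, called β-selection, ends the DN3 program, starts several rounds of division and leads through DN4 to the double positive stage. Without RAG1 no β chain is made and thymocytes stop at DN3. Antibody binding to the few CD3 molecules on their surface stands in for the pre-TCR signal, so the comparison asks which transcripts differ 1 day after that signal. In such bulk samples a lower level can come from fewer cells of a type or from less RNA per cell, and these cannot be told apart.

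The deposited values are read counts divided by a size factor for each library, called normalized counts here. Recovered whole reads summed to 22.5 to 46.5 M reads (median 41.7 M) in 24 h libraries, against 30.6 to 36.1 M reads (median 32.7 M) in 0 h libraries. Libraries came from separate mice, each sequenced on 1 lane. The 24 h libraries of replicates 1 and 2 were on lane 4 and that of replicate 3 on lane 3, whereas the 0 h libraries were all on lane 1. By their transcripts the 24 h mice were male and the 0 h mice female (*Xist* 0 to 11 normalized counts at 24 h, against 18017 to 40796 at 0 h). Lane and sex therefore cannot be told apart from the injection in these 6 libraries. The sorted cells carried DN3 transcripts, with the 10 DN3 markers summing to 78959.5 to 169624 normalized counts in 24 h libraries, against 384812 to 417671.5 in 0 h libraries, and *Cd8a*, a marker of the next stage, at 21.1 to 41.9 at 24 h, against 1.17 to 10.6 at 0 h. Markers of other cells moved as well. The 10 macrophage markers summed to 304 to 873 at 24 h, against 2494 to 3043 at 0 h, and most of the 0 h sum was *Lyz2*. Of 8 tested, 7 were called lower. The 1 called higher was *Itgam*, with 98.2 to 211 at 24 h, against 26.4 to 37.0 at 0 h. The 8 thymic epithelial markers, most of whose sum was *Epcam*, summed to 973 to 1326 at 24 h, against 4059 to 4289 at 0 h. The 10 dendritic cell markers summed to 945 to 1436 at 24 h, against 2350 to 2817 at 0 h. Most of this sum was *Cd74* and the MHC class II genes *H2-Aa*, *H2-Ab1* and *H2-Eb1*. Of 6 tested, 3 were called lower and none higher, and *H2-Ab1*, *Itgax* and *Flt3* overlapped between the groups. The markers of γδ T cells, mostly *Trgc1* and *Trgc2*, summed to 27694 to 38113 at 24 h, against 85951 to 107763 at 0 h. All these mice lacked *Rag1*, so no γδ receptor gene could be rearranged in them. The 13 markers of NK and innate-like lymphocytes, most of whose sum was *Gzma* and *Nkg7*, were higher at 24 h (23614 to 30116, against 7081 to 10801 at 0 h), and 5 of the 9 tested were called higher. The rise of *Gzma* was not called without replicate 3 (log2 change 1.21, adjusted p = 0.101) and its change was -1.16 with lane as a covariate (adjusted p = 0.249), and *Nkg7* overlapped and was not called (0.73, adjusted p = 0.0818). *Ncr1*, which defines NK cells, had 4.93 to 14.97 at 24 h, against 0 to 3.52 at 0 h. *Prf1* had 94.5 to 454 at 24 h, against 1.06 to 7.39 at 0 h. *Klrb1c* had 24.8 to 63.2 at 24 h, against 1.06 to 4.22 at 0 h, and *Klrd1* 2.75 to 20.6, against 0. *Gzmb*, *Fcer1g* and *Klrk1* overlapped between the groups. The 8 B cell markers summed to 1005 to 1514 at 24 h, against 2262 to 2627 at 0 h, mostly *Cd79b*, with *Ms4a1* at 0 in all 6 libraries, and of 7 neutrophil markers the sum was 8.32 to 12.8 at 24 h, against 13.8 to 16.9 at 0 h. The part these cells had in the results was not tested.

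Among 13499 genes, 2281 (16.9%) were higher and 2384 (17.7%) lower at 24 h at an adjusted p of at most 0.05 (limma on log2(value + 1), with a spread shared by all 25 libraries and Benjamini-Hochberg adjustment over all genes). These shares are the background for every count of list members below. Of these, 1214 rose and 1297 fell by at least 2-fold, 527 and 533 by at least 4-fold, and 152 and 105 by at least 16-fold. The median log2 change of all genes was -0.02. All 3 libraries at 24 h lay above all 3 at 0 h for 2819 genes (20.9%) and below them for 3013 (22.3%), and 2104 and 2206 of the called genes were among these.

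**Figure D1:**
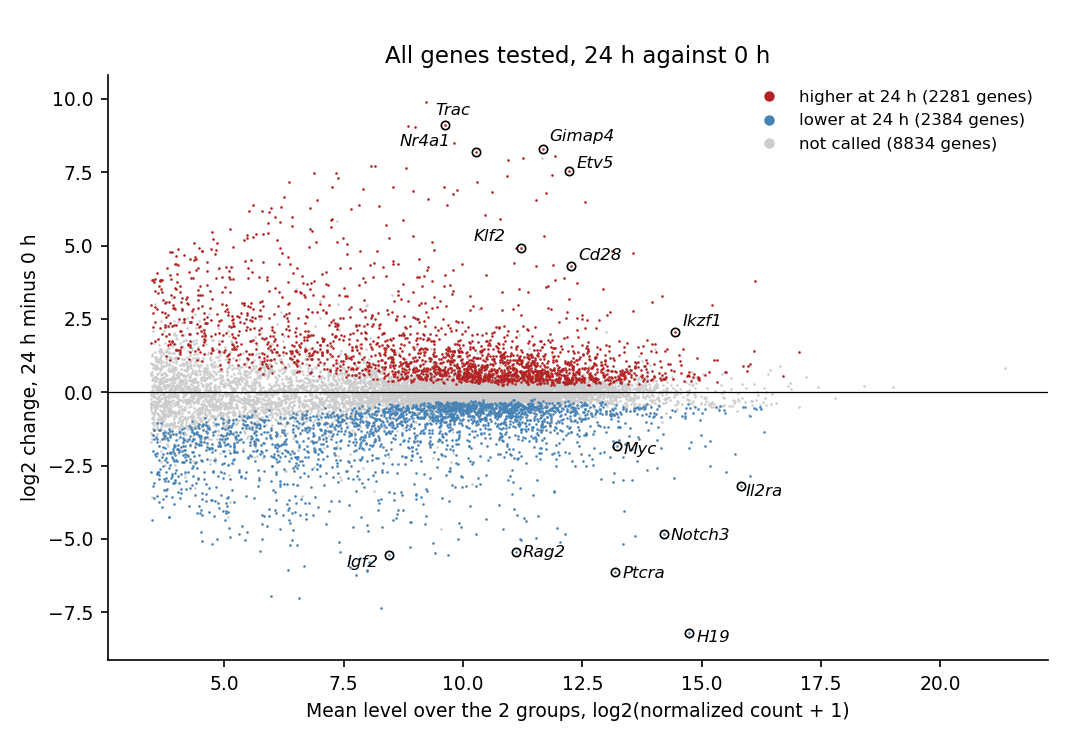
Log2 change at 24 h against 0 h (y axis) by the mean level of the 2 groups, log2(normalized count + 1) (x axis), for the 13499 genes tested, 1 point per gene, red for the 2281 higher and blue for the 2384 lower at 24 h. Changes are largest among genes of low and middle level, and *H19*, with a mean of 27349.8 normalized counts over the 6 libraries, lies at -8.22.

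Replicate 3 of the 24 h group stood apart from the other 24 h libraries. It was the 24 h library closest to the 0 h mean for 1384 of the 2281 genes that rose and for 1446 of the 2384 that fell, where replicate 1 was closest for 152 and 157. Its median distance from the 0 h mean was 0.88 for rises and -0.85 for falls, against 1.24 and -1.29 for replicate 1 and 1.07 and -1.09 for replicate 2 (log2). Without it, 2267 genes were higher and 2453 lower, among them 1980 and 2100 of those called with it. Lane was also added as a covariate. Only the WNK1-deficient 48 h group had libraries both on lane 1 and on lane 3 or 4. The offset between the lanes of the compared groups therefore rests on replicate 3 of that 48 h group. With this term 1092 were higher and 961 lower. Of the 2281 rises 969 kept their call and 2186 their sign, and of the 2384 falls 836 kept their call and 2354 their sign. The plot of all genes shows the call with all 6 libraries. Where leaving out replicate 3 or adding lane ends a call of a gene named below, this is said at the end of its paragraph. Losses without another library are mostly not given by gene. Of 168 called genes that the naming rule chose, 10 were not called without 24 h replicate 3, 35 without replicate 1 and 18 without replicate 2. Without 0 h replicates 1, 2 and 3, the losses were 27, 25 and 9. With lane as a covariate, 105 of the 168 kept their call, 53 lost it with the same sign and 10 changed sign.

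Of the receptor chains, *Trac* rose and *Ptcra*, *Cd3g*, *Cd3d*, *Cd3e* and *Trgc1* fell. *Ptcra*, which encodes pre-Tα, had 59.2, 115 and 2344 normalized counts at 24 h, against 18678, 17744 and 17024 at 0 h. Replicate 3 was the highest 24 h library by far, yet below every 0 h library. The log2 change was -6.13 ± 1.02 (± SE here and below, adjusted p = 0.000103) and -7.74 without replicate 3. *Trac*, the constant region of the TCRα chain, had 1634, 2755 and 348 normalized counts at 24 h, against 3.52, 0 and 1.06 at 0 h. It was near the limit of detection in 0 h mice and well expressed in every injected mouse, a log2 change of 9.11 ± 0.83 (adjusted p = 8.1e-08). The genes of CD3γ, CD3δ and CD3ε fell, *Cd3g* with 15906, 19548 and 25663 normalized counts at 24 h, against 93855, 86508 and 76061 at 0 h (log2 change -2.09 ± 0.22), *Cd3d* by 1.88 ± 0.20 and *Cd3e* by 0.87. *Trgc1*, a constant region of the γ chain that shares reads with its near-identical copies, fell by 1.83. In all, 1 of 9 tested chain genes rose and 5 fell (median -0.87, against -0.02 for all genes). *Cd247* (0.51), which encodes CD3ζ, did not pass the test, although it was called higher without replicate 3 (0.65, adjusted p = 0.0275). *Trdc* was not analysed here, and *Cd3e* was not called with lane as a covariate.

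DN3 genes and Notch targets fell as a group. Of 24 tested, 14 were lower and none higher (17.7% and 16.9% of all genes), with a median of -1.44. *Notch1*, the receptor on which DN3 cells depend, had 7277, 10046 and 23662 normalized counts at 24 h, against 83785, 76564 and 77145 at 0 h, and *Notch3*, a related receptor whose gene is itself a Notch target, had 397, 759 and 6107 normalized counts at 24 h, against 37669, 32863 and 35472 at 0 h. For both, the groups did not overlap and replicate 3 was the highest of the 24 h libraries. The log2 changes were -2.72 ± 0.35 and -4.85 ± 0.60 (adjusted p = 5.05e-06 and 3.49e-06). Notch target genes fell with them. *Hes1*, a repressor, had 226, 289 and 1296 normalized counts at 24 h, against 5975, 5078 and 4178 at 0 h (log2 change -3.51 ± 0.49), and *Dtx1*, which encodes the E3 ligase Deltex1, had 4354, 4535 and 3678 normalized counts at 24 h, against 23495, 24516 and 16282 at 0 h (log2 change -2.34 ± 0.39). Unlike *Hes1*, *Dtx1* was no higher in replicate 3 than in the other 24 h libraries. At 48 h *Dtx1* was spread widely, with 16104, 28756 and 47664 normalized counts, a mean of 30841 against 21431 at 0 h. Its change from 0 h to 48 h did not pass the test (0.41 ± 0.39, adjusted p = 0.423). Its fall at 24 h was lost with lane as a covariate (-1.45, adjusted p = 0.129).

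The recombination machinery fell too. *Rag2*, the partner of RAG1, had 28.8, 31.6 and 840.5 normalized counts at 24 h, against 3091, 4225 and 5012 at 0 h, a log2 change of -5.43 ± 0.93 (adjusted p = 0.000129). Replicate 3 was far above the other injected mice and remained below the uninjected ones. *Dntt*, the terminal transferase that adds bases at junctions, fell by 2.87. *Il2ra*, whose protein CD25 marks DN2 and DN3 cells, had 5645, 8005 and 30251 normalized counts at 24 h, against 97626, 103572 and 101264 at 0 h, a log2 change of -3.18 ± 0.44. The *Il2ra* transcript was thus still abundant at 24 h. *Spib*, an ETS factor of DN3 cells, had 28.8, 18.3 and 293 normalized counts at 24 h, against 1937, 1446 and 1968 at 0 h (log2 change -5.00 ± 0.81). Also lower were *Erg* (-3.23), *Gfi1b* (-3.67), *Heyl*, *Lfng*, *Nrarp* and *Tcf12*. In the fit with lane as a covariate, 9 of all 24 tested were called lower and 1 higher, with a median of -1.33. *Gfi1b*, *Heyl*, *Lfng*, *Nrarp* and *Tcf12* were then not called, and the gene that was higher is *Notch2*. The plot of single genes by library shows the gap between replicate 3 and the other 24 h libraries.

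**Figure D2:**
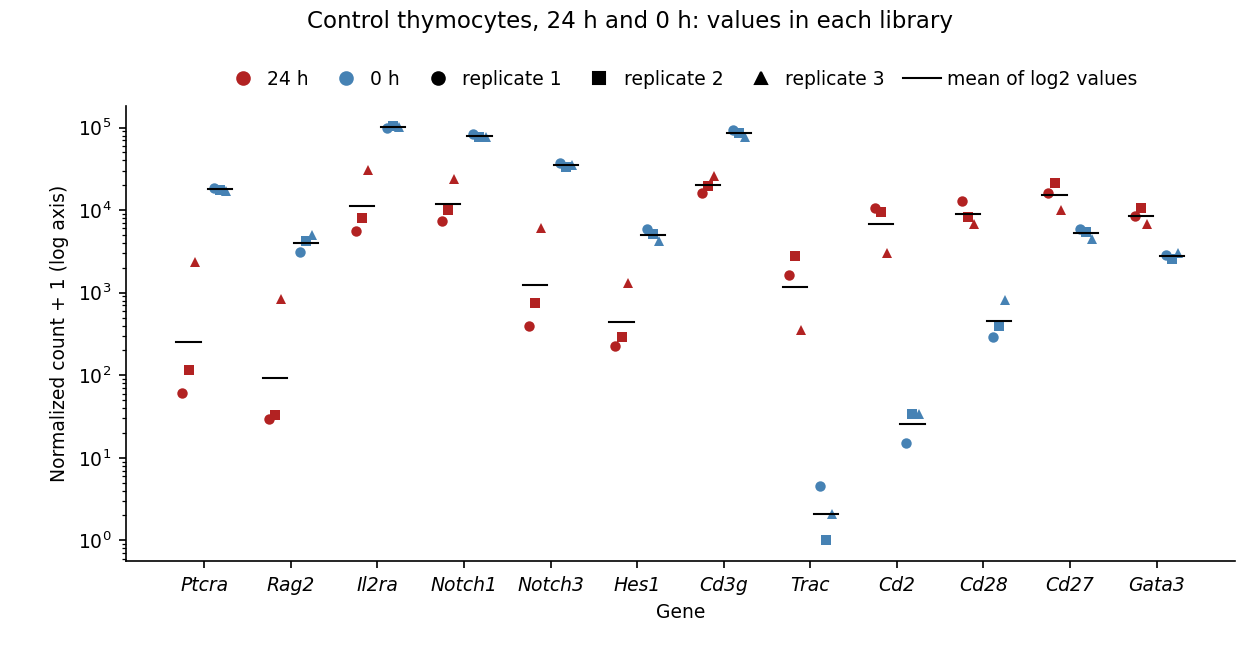
Normalized count + 1 (log axis) of 12 genes in each library, 24 h libraries in red to the left of 0 h libraries in blue, with a symbol for each replicate and a line at the mean of the log2 values (n = 3 each). The 24 h libraries lie below all 0 h libraries for *Ptcra*, *Rag2*, *Il2ra*, *Notch1*, *Notch3*, *Hes1* and *Cd3g* and above them for *Trac*, *Cd2*, *Cd28*, *Cd27* and *Gata3*, with replicate 3 nearest to 0 h.

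Genes of surface proteins that appear after β-selection rose. Of 18 tested, 10 were higher and 2 lower (median 1.86). *Cd2*, an adhesion receptor, had 10676, 9613 and 3048 normalized counts at 24 h, against 14.1, 32.7 and 32.8 at 0 h (log2 change 8.04 ± 0.71). *Cd28*, the costimulatory receptor used to mark DN3 cells past β-selection, had 12902, 8138 and 6856 normalized counts at 24 h, against 286, 397 and 812 at 0 h, far above every uninjected mouse (log2 change 4.31 ± 0.29, adjusted p = 1.03e-09). *Cd27*, a TNF receptor family member used for the same purpose, had 16215, 21352 and 10042 normalized counts at 24 h, against 5935, 5453 and 4435 at 0 h, a smaller rise of 1.53 ± 0.21 from a higher starting level, with no overlap. *Cd5*, a negative regulator set by the strength of receptor signals, had 1231, 1752 and 507 normalized counts at 24 h, against 122, 53.8 and 22.2 at 0 h (log2 change 4.26 ± 0.81). *Cd69*, an early activation marker, rose by 3.92. *Tfrc*, the transferrin receptor of dividing cells, had 11829.8, 5445 and 10463 normalized counts at 24 h, against 1041, 1592 and 2040.3 at 0 h (log2 change 2.55 ± 0.45), but was not called with lane as a covariate (1.88, adjusted p = 0.131). *Ly6d* (-2.91 ± 0.60) and *Thy1*, on which the cells were sorted (-0.69 ± 0.22), fell, *Thy1* not with lane as a covariate.

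Coreceptor genes did not pass the test. *Cd8a* had 41.9, 23.3 and 21.1 normalized counts at 24 h, against 1.17, 8.45 and 10.6 at 0 h, and every injected mouse lay above the uninjected ones, but the levels were near the limit of counting (log2 change 2.20 ± 1.19, adjusted p = 0.159). *Cd4* had 348, 373 and 105 normalized counts at 24 h, against 56.2, 124 and 144 at 0 h and overlapped between the groups (adjusted p = 0.326). At 48 h *Cd8a* had 40.0 to 161 normalized counts. *Il7r*, the receptor that keeps early thymocytes alive, had 4085, 2731 and 3632 normalized counts at 24 h, against 2006, 1867 and 3421 at 0 h and overlapped too (log2 change 0.55 ± 0.25, adjusted p = 0.0851).

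Genes of the immediate response to receptor signals were still high after 1 day. Of 26 tested, 16 rose and 2 fell (median 1.39). *Nr4a1*, an orphan nuclear receptor used as a reporter of antigen receptor signals, had 2139.9, 3733 and 1484 normalized counts at 24 h, against 5.86, 7.39 and 7.40 at 0 h, a log2 change of 8.18 ± 0.35 (adjusted p = 1.13e-12). *Egr1*, a zinc finger factor downstream of ERK, had 3961, 7511 and 3087 normalized counts at 24 h, against 22.3, 12.7 and 16.9 at 0 h (log2 change 7.98 ± 0.36). In both genes the injected mice were far above the uninjected ones, which were near the limit of detection. *Egr2* and *Egr3*, which act in β-selection, rose by 7.73 and 7.48, and *Nab2*, a corepressor that EGR proteins both bind and induce, by 6.83. *Id3*, an inhibitor of E proteins and a target of EGR factors, had 8294, 9788 and 3833 normalized counts at 24 h, against 538, 447 and 439 at 0 h (log2 change 3.84 ± 0.34). *Dusp6* (4.37) and *Dusp4* (1.77), phosphatases of ERK, rose as well. The list's median was 3.16 at 3 h, 1.39 at 24 h and 1.76 at 48 h, all against the same 0 h libraries. At 3 h *Nr4a1* averaged 32924 and *Egr1* 17693 normalized counts.

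The AP-1 genes in this list did not move together. *Fos* rose by 3.05 and *Fosb* by 1.38, whereas *Jun* had 97.0, 98.1 and 477 normalized counts at 24 h, against 1678, 1683 and 1205 at 0 h, a log2 change of -3.17 ± 0.49 (adjusted p = 4.67e-05). *Jun* was lower in every injected mouse, least so in replicate 3. The other fall was that of *Ier3* (-1.73 ± 0.53), at low counts. *Etv5*, an ETS factor induced by ERK signals, was outside this list and among the 15 largest rises, with 9913, 11934 and 6737 normalized counts at 24 h, against 68.0, 54.9 and 31.7 at 0 h (log2 change 7.53 ± 0.34). *Fosb* and *Ier3* were not called with lane as a covariate.

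Of 29 transcription factors of the T lineage, 13 rose and 5 fell (median 0.29). A pair of Ikaros family genes had large rises in abundant transcripts. *Ikzf1*, which encodes Ikaros, had 40263, 38987 and 28799 normalized counts at 24 h, against 7653, 8794 and 9522 at 0 h (log2 change 2.05 ± 0.13, adjusted p = 5.07e-10), and *Ikzf3*, which encodes Aiolos, had 7811, 9281 and 3166 normalized counts at 24 h, against 56.2, 41.2 and 68.8 at 0 h (log2 change 6.79 ± 0.56). The groups were far apart in both. *Ikzf2* (Helios) rose by 2.55. *Gata3*, needed from the earliest stages of the lineage, had 8571, 10538 and 6799.9 normalized counts at 24 h, against 2863, 2535 and 3059 at 0 h (log2 change 1.60 ± 0.15), and *Tox*, a factor of the CD4 lineage, rose by 2.47. Smaller rises were those of *Lef1* (1.26), *Tcf7* (0.89), *Runx3* (1.16), *Cbfb* (1.11) and *Nfatc1* (0.98). The falls were *Runx1*, with 3867, 3858 and 6357 normalized counts at 24 h, against 10179, 11053 and 13970.0 at 0 h (log2 change -1.35 ± 0.22), *Ets2* (-1.15 ± 0.25), *Myb* (-0.84 ± 0.22), *Id1* and *Tcf12*. *Tcf7*, *Runx3*, *Id1* and *Tcf12* were not called with lane as a covariate, nor *Id1* without replicate 3.

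**Figure D3:**
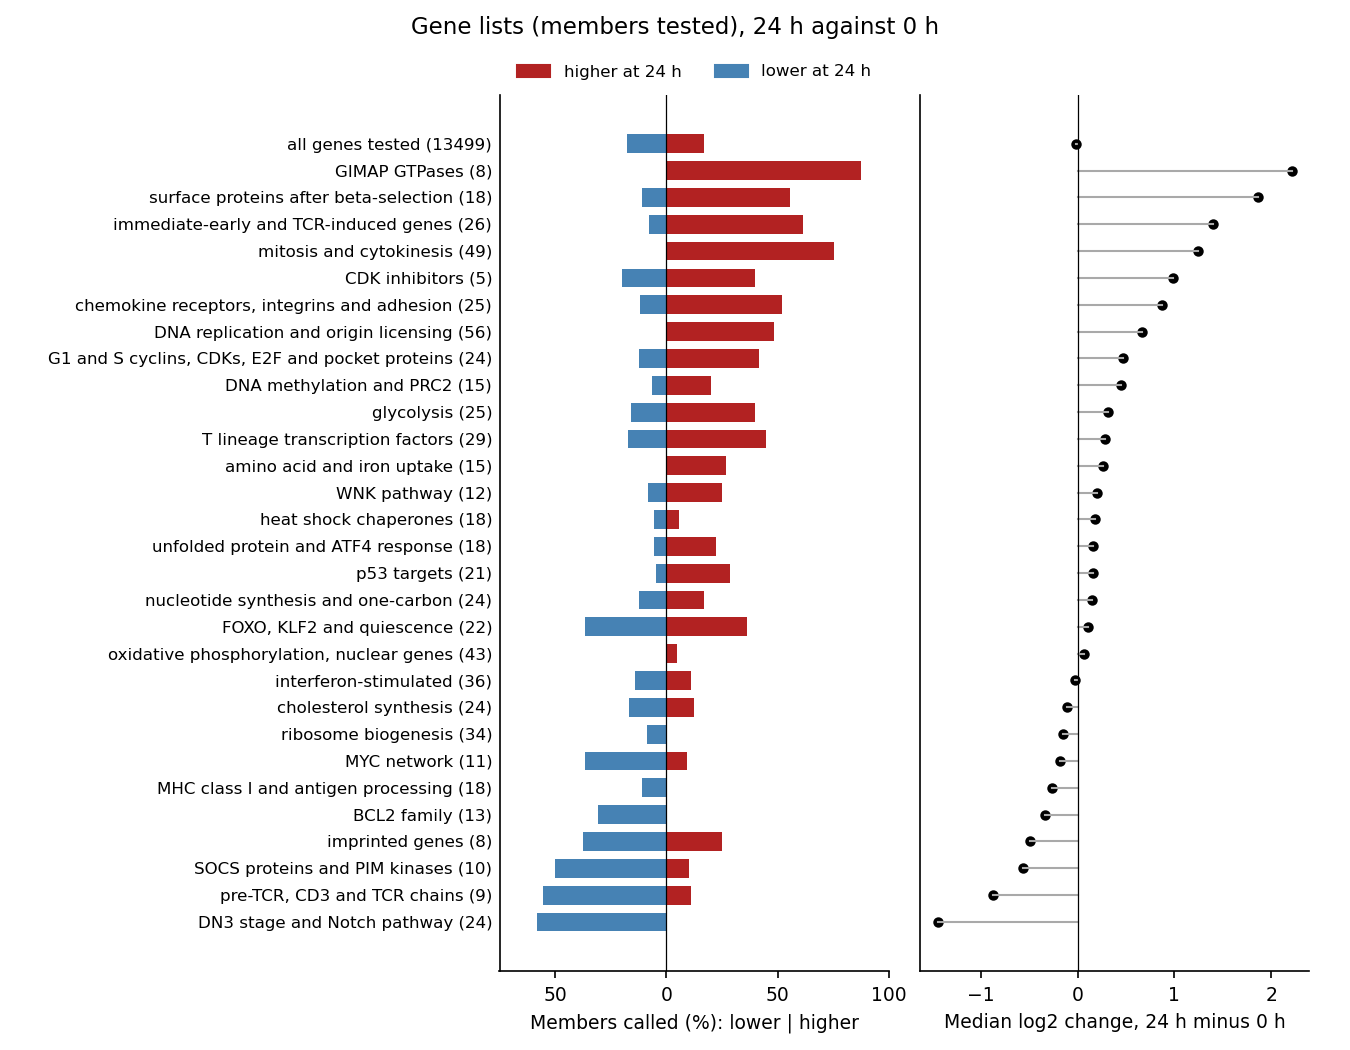
Share of the tested members of each list called lower (blue, to the left) or higher (red, to the right) at 24 h, and the median log2 change of the list, for 29 lists and all genes tested, with the number of tested members in parentheses. The GIMAP list has the largest median (2.21) and the DN3 and Notch list the lowest (-1.44), against -0.02 for all genes.

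Genes of the cell cycle were higher at 24 h. Of 49 mitosis genes 37 rose and none fell (median 1.24), and of 56 replication genes 27 rose and none fell (median 0.66), against 16.9% of all genes higher. All 49 mitosis genes and 55 of 56 replication genes had a positive change. *Mki67*, whose product Ki-67 is made by dividing cells, had 29493, 14595 and 24197 normalized counts at 24 h, against 6008, 6727 and 13751 at 0 h, a log2 change of 1.41 ± 0.51 (adjusted p = 0.0379). The groups did not overlap, but the highest uninjected mouse was just below the lowest injected one. *Cdc25b*, a phosphatase that activates CDK1, had 8004, 9189 and 3929 normalized counts at 24 h, against 1722, 1690.3 and 2114 at 0 h (log2 change 1.85 ± 0.38), and *Bub1*, a checkpoint kinase of the kinetochore, had 2278, 948 and 1975 normalized counts at 24 h, against 368, 438 and 775 at 0 h (log2 change 1.70 ± 0.51). *Rrm2*, a subunit of ribonucleotide reductase, had 9591, 4951 and 7857 normalized counts at 24 h, against 2009.5, 1970.1 and 3457 at 0 h (log2 change 1.59 ± 0.44), *Cdc45*, part of the replicative helicase, rose by 1.27 and *Clspn* by 1.46. *Mcm5*, another helicase subunit, had 16605, 18233 and 21464 normalized counts at 24 h, against 10412, 9222 and 10659 at 0 h (log2 change 0.89 ± 0.30), with no overlap and its highest value in replicate 3. Replicate 2 was the lowest injected mouse for *Mki67*, *Bub1* and *Rrm2*, and replicate 3 for *Cdc25b*. The uninjected mice differed too. The median difference of the mitosis genes from the 0 h mean was 0.42 in 0 h replicate 3, against -0.19 and -0.22 in replicates 1 and 2.

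Both lists lost nearly all their calls when lane was a covariate, a term that rests on 1 library of another group, as said above. Then 1 of 56 replication genes (median -0.003) and 1 of 49 mitosis genes (median -0.09) were higher and none lower, and *Mki67* (-0.15), *Ccna2* (-0.02) and *Cdc25c* (-0.09) changed sign without passing the test. The calls left were *Rpa1*, a replication protein, and *Pttg1*, securin. Without replicate 3, 15 replication and 27 mitosis genes were higher, with medians of 0.48 and 1.23, and *Mki67*, *Mcm5*, *Ccna2*, *Cdc6*, *Gins3*, *Ncapg* and *Kif11* were not called. The plot of lists by fit shows these shifts gene by gene.

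**Figure D4:**
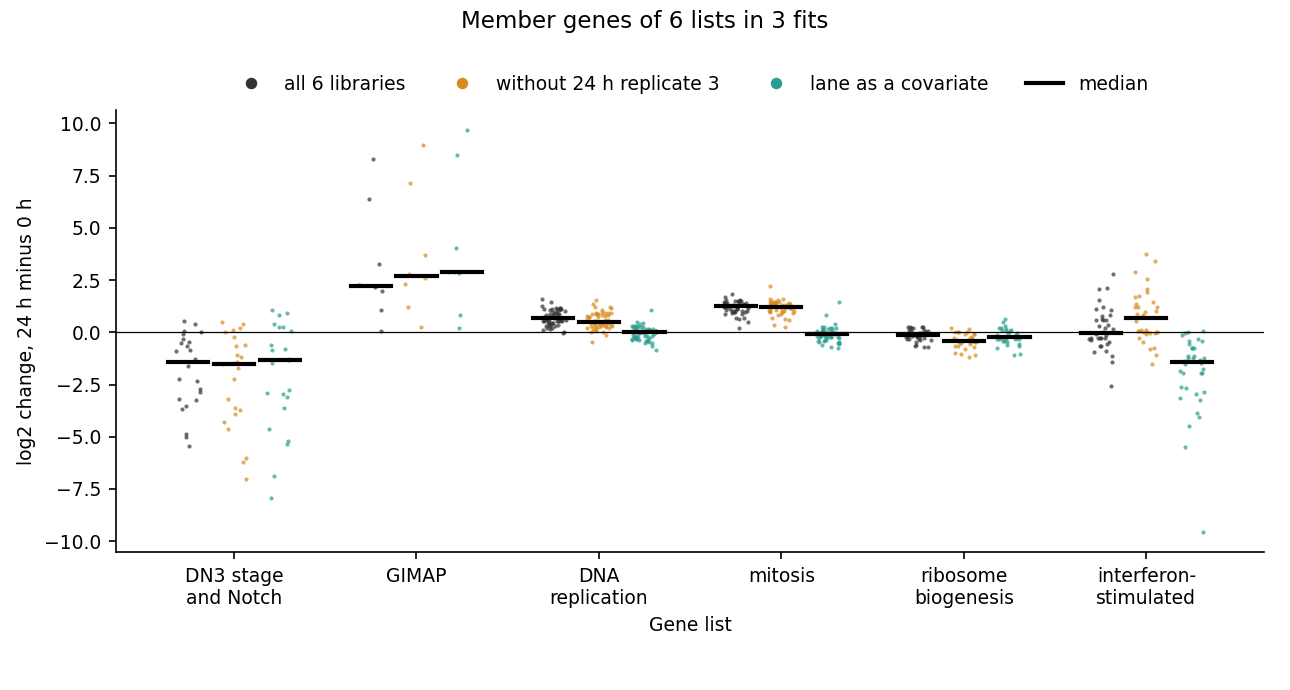
Log2 change of each member gene (points) and the median (line) of 6 lists with all 6 libraries, without replicate 3 at 24 h and with lane as a covariate. The medians of the replication and mitosis lists lie at 0.66 and 1.24 with all libraries and at -0.003 and -0.09 with lane as a covariate, while those of the DN3 and GIMAP lists stay at -1.33 and 2.89 with it.

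Of 24 genes of G1 and S phase, 10 rose and 3 fell (median 0.47). *Ccne1*, the cyclin that drives entry into S phase with CDK2, had 1229, 1046 and 1117 normalized counts at 24 h, against 224, 208 and 293 at 0 h, a log2 change of 2.23 ± 0.35 (adjusted p = 4.59e-05) with tight groups, and 1.54 with lane as a covariate (adjusted p = 0.0518). *Cdk2*, *Ccna2*, *E2f1*, *E2f2*, *E2f3* and *E2f8* rose by 0.54 to 1.67, as did *Rb1* (1.54 ± 0.30), which restrains E2F, whereas *E2f4* and *E2f5*, which act mainly as repressors, fell by 0.67 and 1.03. With lane as a covariate *Rbl2* was the 1 gene higher and none was lower (median 0.02), and without replicate 3 *Ccna2*, *E2f1*, *E2f2* and *E2f3* were not called. *Ccnd2*, the D cyclin of pre-TCR signals, had 8817, 9590.0 and 10538 normalized counts at 24 h, against 12928, 15683 and 15581 at 0 h, a log2 change of -0.61 ± 0.22 (adjusted p = 0.0376) that turned to 0.45 with lane as a covariate. *Ccnd3*, the D cyclin that β-selection requires, had 6084, 7151 and 8757 normalized counts at 24 h, against 7102, 7196 and 6542 at 0 h and overlapped (log2 change 0.06 ± 0.19). Of 5 CDK inhibitors, *Cdkn1a* (p21) had 173, 406 and 556 normalized counts at 24 h, against 3493, 4351 and 3518 at 0 h, a log2 change of -3.47 ± 0.40. *Cdkn2c* rose by 1.03 and *Cdkn1c* by 2.55, while *Cdkn1b* (p27), with 2436, 2177 and 1943 normalized counts at 24 h, against 2424, 2351 and 2218 at 0 h, did not pass the test (adjusted p = 0.671). *Cdkn2c* was not called with lane as a covariate. *Cdkn2d* was not analysed here.

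The promoters of these lists are shown because their members moved together and carry sites of known cell cycle regulators in other work: E2F, which acts at G1 and S genes, and the MuvB complex, which binds a cell cycle homology region (CHR) at mitosis genes. The sequences are RefSeq promoters of the build GRCm38.p6. In windows of 300 bases, the letters TTTCCCGC, TTTGGCGC or TTTCGCGC (E2F, either strand) were in 16 of 55 promoters of replication genes (29.1%) and 3 of 46 of mitosis genes (6.52%), against 1.84% of all 32851 promoters and 3.56% of the 12030 promoters of genes tested. The letters TTTGAA or TTCGAA (CHR, either strand) were in 35 of 46 promoters of mitosis genes (76.1%) and 10 of 55 of replication genes (18.2%), against 19.2% of all promoters and 14.1% of those of genes tested. CCAAT, which NF-Y binds, was in 71.7% of mitosis and 50.9% of replication promoters, against 37.4% of all and 37.8% of those of genes tested, and CACGTG, an E-box, in 6.52% and 16.4%, against 7.15% and 9.91%. Each motif was searched by itself, and matches of different motifs may overlap. A match is a description of the letters, not of binding. The 200 bases before the start are given 5′ to 3′ on the strand of the gene, with the E2F letters of 3 replication genes and then the CHR letters of 3 mitosis genes in capitals. Leaving out promoters of an excluded chromosome, they are the genes of each list with the largest called rise that hold the motif in this stretch.
Cdc6: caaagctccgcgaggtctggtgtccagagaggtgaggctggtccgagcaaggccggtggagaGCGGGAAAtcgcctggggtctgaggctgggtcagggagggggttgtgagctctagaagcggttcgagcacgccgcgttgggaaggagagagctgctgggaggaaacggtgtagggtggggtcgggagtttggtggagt
Mcm5: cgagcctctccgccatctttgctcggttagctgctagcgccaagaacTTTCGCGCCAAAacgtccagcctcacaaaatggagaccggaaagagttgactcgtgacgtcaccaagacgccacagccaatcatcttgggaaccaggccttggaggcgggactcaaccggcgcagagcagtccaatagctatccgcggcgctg
Gins3: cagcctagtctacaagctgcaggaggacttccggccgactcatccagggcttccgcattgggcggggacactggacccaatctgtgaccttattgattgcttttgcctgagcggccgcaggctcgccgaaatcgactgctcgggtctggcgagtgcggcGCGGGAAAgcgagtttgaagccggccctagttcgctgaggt
Ncapg: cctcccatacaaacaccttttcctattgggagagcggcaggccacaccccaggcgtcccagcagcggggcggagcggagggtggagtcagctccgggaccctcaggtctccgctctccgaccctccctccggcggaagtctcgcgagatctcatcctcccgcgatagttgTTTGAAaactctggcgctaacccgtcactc
Kif2c: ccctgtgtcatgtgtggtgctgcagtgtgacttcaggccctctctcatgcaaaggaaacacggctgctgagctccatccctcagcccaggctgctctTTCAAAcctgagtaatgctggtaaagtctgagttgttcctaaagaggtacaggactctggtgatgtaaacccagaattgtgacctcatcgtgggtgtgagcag
Kif11: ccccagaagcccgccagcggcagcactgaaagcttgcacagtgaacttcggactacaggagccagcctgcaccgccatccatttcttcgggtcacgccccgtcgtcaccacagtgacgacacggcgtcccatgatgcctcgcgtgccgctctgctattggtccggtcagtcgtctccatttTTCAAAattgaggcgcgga

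*Cdc6* (chr11:98907951-98908150, plus strand) loads the MCM helicase and rose by 1.10, with 3067, 2675 and 4190.4 normalized counts at 24 h, against 1396, 1348 and 1848 at 0 h. *Mcm5* (chr8:75109309-75109508, plus strand) holds E2F letters on both strands in 1 overlapping run, and *Gins3* (chr8:95633359-95633558, plus strand), a GINS subunit, rose by 0.66. *Ncapg* (chr5:45669725-45669924, plus strand), a condensin subunit, rose by 1.52, with 3432, 1284 and 2864 normalized counts at 24 h, against 623, 643 and 1329.5 at 0 h. *Kif2c* (chr4:117178773-117178972, minus strand) and *Kif11* (chr19:37376182-37376381, plus strand), both mitotic kinesins, each rose by 1.51. The CHR letters began 30 and 19 bases before the start in *Ncapg* and *Kif11* and 103 bases before it in *Kif2c*.

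*Myc* fell. It had 2068, 3136 and 9788 normalized counts at 24 h, against 14766, 12678 and 14922 at 0 h, and replicate 3 lay between the other injected mice and the uninjected ones (log2 change -1.82 ± 0.37, adjusted p = 0.000716, and -2.47 without replicate 3). *Mycn* had 283, 308 and 198 normalized counts at 24 h, against 1126, 1217 and 881 at 0 h (log2 change -2.04 ± 0.27), *Mxi1* fell by 0.80 and *Mxd4* by 0.79, and *Mxd3*, an antagonist of MYC expressed in dividing cells, rose by 1.23, though not with lane as a covariate (-0.46). Of 11 genes of the network 1 rose and 4 fell (median -0.18). Genes of ribosome biogenesis, many of them MYC targets, stayed close to 0 h. Of 34, none rose and 3 fell (median -0.15), *Nop16*, *Polr1b* and *Wdr12*, with falls of 0.66 to 0.71. These were not called with lane as a covariate, nor was *Mxd4*, and without replicate 3 *Mxd4* was not called either. The replicates disagreed here: the median of the list was -0.36 and -0.45 in replicates 1 and 2 and 0.38 in replicate 3, and 14 of 34 were lower without replicate 3 (median -0.43). At 3 h 25 of them had been higher than at 0 h (median 0.90), where 18.1% of all genes were higher.

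Of 25 glycolysis genes, 10 rose and 4 fell (median 0.31). *Eno1*, which encodes α-enolase, had 17203, 20296 and 13645 normalized counts at 24 h, against 6248, 5060.5 and 4459 at 0 h (log2 change 1.69 ± 0.28), and *Pfkp*, the platelet type of phosphofructokinase, had 3017, 4180.3 and 2463 normalized counts at 24 h, against 709, 657 and 846 at 0 h (log2 change 2.10 ± 0.22). The other isoforms of that enzyme, *Pfkl* and *Pfkm*, fell by 0.59 and 0.39. *Slc2a1* and *Slc2a3* (glucose transporters), *Hk2*, *Pgam1*, *Ldha*, *Pkm* and *Slc16a3* (lactate export) rose by 0.53 to 2.07, and *Ldhb* fell by 0.94. Of 43 nuclear genes of oxidative phosphorylation 2 rose and none fell (median 0.06), *Cycs* (1.04) and *Ndufs1* (0.38), whereas 29 had been lower than 0 h at 3 h, as had 19.2% of all genes. Of 24 nucleotide and one-carbon genes 4 rose (16.7%, against 16.9% of all genes) and 3 fell, with a median of 0.15 that was -0.10 without replicate 3. *Mthfd1l*, an enzyme of the mitochondrial one-carbon pathway, had 4254, 4328 and 4280.3 normalized counts at 24 h, against 1349.8, 1285 and 1540.0 at 0 h (log2 change 1.63 ± 0.16). *Mthfd2* of the same pathway rose by 1.13 and *Psat1* of serine synthesis by 1.26, while *Phgdh*, the first enzyme of that pathway, fell by 0.81. Of 24 cholesterol genes 3 rose and 4 fell. Of 15 uptake genes for amino acids and iron, 4 rose (*Tfrc*, *Slc7a7*, *Slc7a1* and *Slc3a2*) and none fell. These were not called with lane as a covariate, nor were *Pfkl*, *Pfkm*, *Slc2a3*, *Hk2*, *Pkm*, and *Ndufs1*, and without replicate 3 *Hk2* and *Ndufs1* were not called.

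Of 13 BCL2 family genes none rose and 4 fell (median -0.33). *Bcl2l11*, which encodes the death-promoting protein BIM, had 243, 191 and 738 normalized counts at 24 h, against 1437, 1284 and 1632 at 0 h (log2 change -2.15 ± 0.32), and *Bmf*, a related gene, had 477, 919.9 and 1341 normalized counts at 24 h, against 4491, 3829 and 3115 at 0 h (log2 change -2.17 ± 0.31). The survival genes *Bcl2* (3286, 2753 and 3165 normalized counts at 24 h, against 3324, 4464 and 3846 at 0 h) and *Bcl2l1* (869.8, 1226 and 809 normalized counts at 24 h, against 1224, 1139 and 1154 at 0 h) did not pass the test (adjusted p = 0.376 and 0.275). Of 21 p53 targets 6 rose and 1 fell, with a median of 0.16. *Plk3* rose by 3.67 and *Dglucy* by 2.60, whereas *Btg2*, an inhibitor of proliferation, had 4714, 4954 and 5049 normalized counts at 24 h, against 10909, 12130.1 and 10142 at 0 h (log2 change -1.17 ± 0.14), and *Cdkn1a*, another p53 target, fell as given above. *Gtse1*, a G2 gene in the same list, rose by 1.09 and had a change of -0.32 with lane as a covariate, and *Dglucy* was not called then. *Gtse1* was not called without replicate 3 either.

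Genes of migration and egress showed some of the largest rises. *Klf2*, a factor of quiescence and egress, had 4964, 6942 and 1932 normalized counts at 24 h, against 177, 221 and 60.3 at 0 h (log2 change 4.92 ± 0.71). Its targets *S1pr1*, the receptor by which T cells leave tissues, with 1914, 2312 and 440.4 normalized counts at 24 h, against 12.9, 9.50 and 5.29 at 0 h, and *Ccr7*, with 2987, 3216 and 1275 normalized counts at 24 h, against 21.1, 6.33 and 24.3 at 0 h, rose by 7.01 and 7.17. Uninjected mice were close to 0 for both, and replicate 3 was the lowest of the injected mice. *Foxo1* rose by 1.63 and *Foxo3* fell by 0.80. Of the 22 genes of the FOXO, KLF2 and quiescence list 8 rose and 8 fell (median 0.11), the falls including *Pik3ip1* (-2.08), *Txnip* and *Klf3*. *Foxo3* and *Txnip* were not called with lane as a covariate. Of 25 genes of chemokine receptors, integrins and adhesion, 13 rose and 3 fell (median 0.87). *Itgb2*, the β chain of LFA1, had 11168, 13772 and 5301 normalized counts at 24 h, against 702, 739 and 686 at 0 h (log2 change 3.72 ± 0.38), and its partner *Itgal* rose by 0.87. *Itgb7* and *Itgb3*, other integrin β chains, rose by 4.30 and 2.88. *Ccr9*, which thymocytes gain at this step, rose by 2.20, *Ccr4* by 3.62 and *Cxcr6* by 5.92. *Cxcr4*, the receptor of DN cells for CXCL12, had 5427, 8687 and 7667 normalized counts at 24 h, against 10732, 11573 and 9229 at 0 h, a log2 change of -0.55 ± 0.19 (adjusted p = 0.0269) that was -1.28 with lane as a covariate. *Itgae* fell by 1.94, which lane as a covariate took to 0.07.

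The 8 GIMAP genes, GTPases of lymphocyte survival encoded side by side on chromosome 6, had the largest median of any list (2.21), with 7 higher, none lower and all 8 changes positive. *Gimap4* had 9980.1, 7373 and 2100.3 normalized counts at 24 h, against 12.9, 24.3 and 13.8 at 0 h (log2 change 8.28 ± 0.53), and *Gimap3*, with 699, 932 and 159 normalized counts at 24 h, against 4.69, 5.28 and 4.23 at 0 h, rose by 6.36. *Gimap8* rose by 3.29 and *Gimap5* by 2.24. In each of these, replicate 3 was the lowest injected mouse and well above the uninjected ones. Of the 8, 7 were higher with lane as a covariate, and at 48 h all 8 were (median 3.36), against 21.4% of all genes higher at 48 h.

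Feedback genes of cytokine signals fell. *Socs3*, an inhibitor of cytokine receptors, had 144, 203 and 559 normalized counts at 24 h, against 4371, 3959 and 3670.2 at 0 h (log2 change -3.97 ± 0.45), *Socs2* had 15.6, 54.9 and 123 normalized counts at 24 h, against 1196, 1113 and 1009 at 0 h (log2 change -4.50 ± 0.46), *Cish* fell by 3.88 and *Socs1* by 2.22. The groups did not overlap in any of them. *Pim1*, a kinase induced by the same signals, fell by 0.67, and *Socs5* rose by 0.65, so 1 of 10 rose and 5 fell. *Pim1* and *Socs5* were not called with lane as a covariate. Interferon-stimulated genes split by replicate. Of 36, 4 rose and 5 fell (median -0.03), but the list's median was 0.53 and 0.55 in replicates 1 and 2 and -0.97 in replicate 3. Without replicate 3, 12 were higher and 5 lower, and with lane as a covariate none was higher and 17 lower (median -1.42). *Oas3*, an antiviral enzyme, had 5061, 5289.9 and 938 normalized counts at 24 h, against 557, 801 and 754 at 0 h, where replicate 3 was close to the uninjected mice. Its log2 change was 2.07 ± 0.51, or -0.04 with lane as a covariate. Of 18 genes of MHC class I and antigen processing none rose and 2 fell, *Tap2* (-1.23 ± 0.19) and *H2-Q4*, which shares reads with near-identical copies and was not called without replicate 3 or with lane as a covariate.

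*H19*, an imprinted RNA of growing and fetal tissues, had the largest fall of any list member, with 41.1, 88.2 and 1529.5 normalized counts at 24 h, against 66512, 52645 and 43284 at 0 h (log2 change -8.22 ± 0.81, and -9.77 without replicate 3). Its imprinted neighbour *Igf2*, a growth factor, had 9.87, 9.98 and 22.9 normalized counts at 24 h, against 682, 906 and 479 at 0 h (log2 change -5.56 ± 0.60), with all injected mice below 25 normalized counts. Of 8 imprinted genes tested, 2 rose (*Cdkn1c* and *Igf2r*) and 3 fell, the third being *Airn*. Among genes of DNA methylation and PRC2, *Dnmt1*, the maintenance methyltransferase, rose by 0.75 and *Dnmt3b*, a de novo enzyme, had 1285, 1485 and 2156 normalized counts at 24 h, against 2894, 2911 and 2908 at 0 h, a log2 change of -0.86 ± 0.15. In all 3 of 15 rose and 1 fell. *Xbp1*, a factor of the unfolded protein response, had 2540.2, 2831 and 3970.2 normalized counts at 24 h, against 15249, 14203 and 13344 at 0 h (log2 change -2.22 ± 0.15), with little spread between mice, while the chaperones *Hspa5* (0.79), *Hsp90b1*, *Pdia4* and *Calr* rose. Of 18 heat shock genes 1 rose (*Hspa4*) and 1 fell (*Hsf1*). *Airn*, *Dnmt1*, *Hspa5*, *Hsp90b1*, *Calr*, *Hspa4* and *Hsf1* were not called with lane as a covariate, nor *Hsp90b1* and *Hspa4* without replicate 3.

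*Wnk1* itself, of which these mice keep 1 allele, had 7281, 5433 and 6286 normalized counts at 24 h, against 5643, 5407 and 7356 at 0 h and did not pass the test (log2 change 0.05 ± 0.23, adjusted p = 0.898). Of 12 genes of the WNK pathway 3 rose and 1 fell. *Stk39*, a kinase that WNK1 activates, had 427, 391 and 207 normalized counts at 24 h, against 90.2, 100.3 and 92.0 at 0 h (log2 change 1.78 ± 0.35), *Slc12a2*, the sodium, potassium and chloride cotransporter it controls, had 290.2, 185 and 362 normalized counts at 24 h, against 153, 99.2 and 107 at 0 h (log2 change 1.19 ± 0.31), and *Cab39l*, a scaffold of STK39, rose by 1.52. *Slc12a7*, which exports potassium and chloride, fell by 1.00. These 4 genes did not overlap between the groups, and *Slc12a7* was not called with lane as a covariate.

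The largest rises by fold included genes outside these lists. The highest was *A430093F15Rik*, with 1424, 1807 and 342 normalized counts at 24 h, against 0, 0 and 0 at 0 h (log2 change 9.91 ± 0.53). *Tgm3* (transglutaminase 3), with 896, 1667 and 215 normalized counts at 24 h, against 0, 1.06 and 0 at 0 h, and *Ccr10* (a chemokine receptor), with 876, 1991 and 174 normalized counts at 24 h, against 0, 0 and 1.06 at 0 h, rose by 9.08 and 9.05, values that depend on the pseudocount since 0 h libraries held 0 to 1.06. *Cntnap1* rose by 8.49, *Cap2*, an actin regulator, by 7.72 and *Mapk11*, which encodes p38β, by 7.65. *Il2rb*, the β chain of the IL-2 and IL-15 receptors, had 4288, 6138 and 1378 normalized counts at 24 h, against 12.9, 14.8 and 10.6 at 0 h (log2 change 7.92 ± 0.75), and *Il18r1*, a chain of the IL-18 receptor, was listed at 0 in all 0 h libraries and had 298, 356 and 51.4 normalized counts at 24 h, at least 66.9-fold higher with a floor of 3 reads per library. *Il2rb* is among the NK and innate-like markers given above, whose part was not tested. The other large falls included *Il34* (a ligand of the CSF1 receptor), with 0, 0 and 50.5 normalized counts at 24 h, against 547, 638 and 631 at 0 h, *Tmem204*, *Ephx3*, *Cldn4* (claudin 4, a tight junction protein), with 7.40, 18.3 and 229 normalized counts at 24 h, against 1294, 1651 and 1750.5 at 0 h, and *Ngfr*. For *Il34*, replicate 3 was the only injected mouse above 0. *Ngfr* was not called with lane as a covariate.

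**Figure D5:**
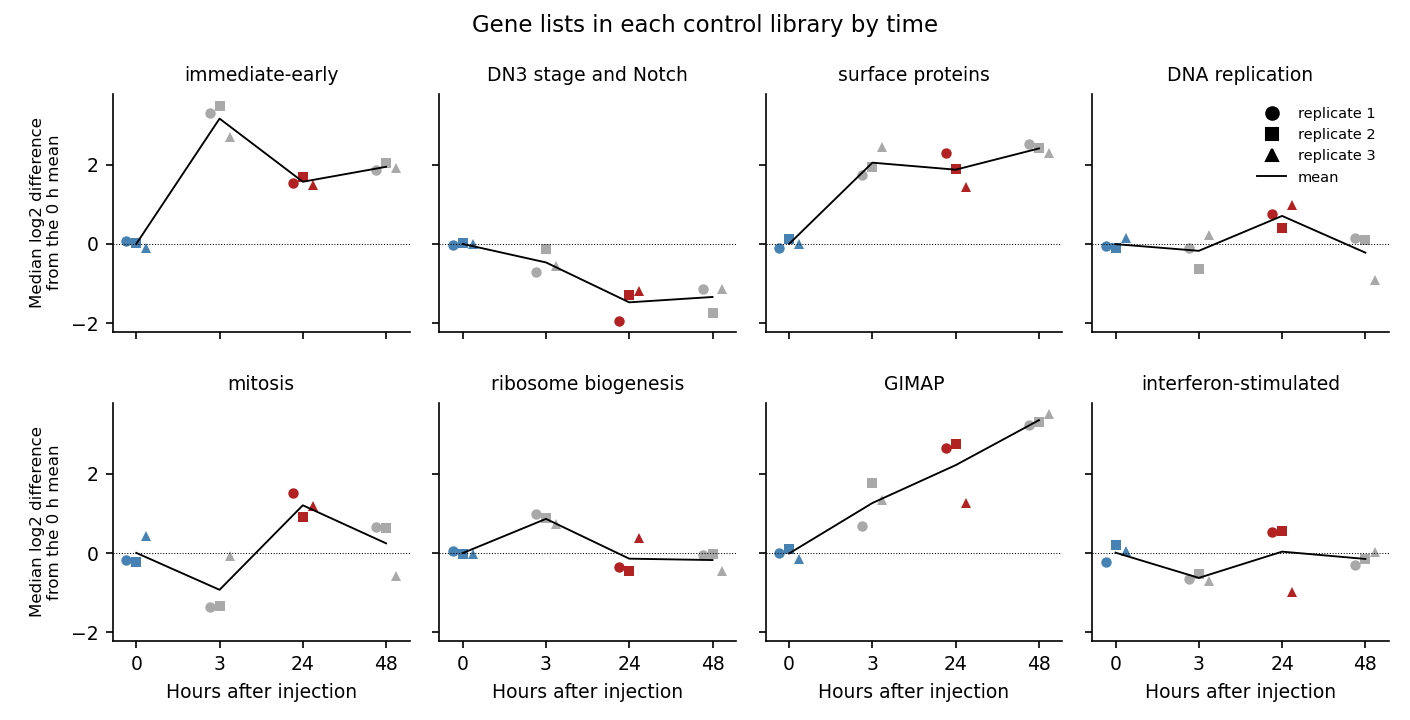
Median log2 difference of the members of 8 lists from their 0 h means (y axis) in each control library at 0, 3, 24 and 48 h after injection (x axis, not to scale), with a symbol per replicate and a line through the means of the 3 libraries. At 24 h the mitosis and replication lists are at their highest of the 4 times, the immediate-early list is below its 3 h value and the GIMAP list between its 3 h and 48 h values.

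Set in the time course, of the 2281 genes higher at 24 h, 889 had been called higher and 128 lower at 3 h, and 1505 were higher and 13 lower at 48 h. Of the 2384 lower genes, 903 had been lower and 122 higher at 3 h, and 1619 were lower and 25 higher at 48 h. Of all genes, 18.1% were higher and 19.2% lower at 3 h and 21.4% higher and 21.7% lower at 48 h, and all these comparisons share the 0 h libraries. Between 24 h and 48 h, 300 of the rises and 183 of the falls went further and 392 and 423 turned back, where 13% of all genes were higher and 10.5% lower at 48 h than at 24 h. The plot of lists over time shows how lists differed. Of 49 mitosis genes, 24 were lower than 0 h at 3 h (median -0.85), 37 higher at 24 h and 2 higher at 48 h (median 0.27). Replicates disagreed at 3 h and 48 h. The median difference of these genes from the 0 h mean was -1.35, -1.34 and -0.08 in replicates 1, 2 and 3 at 3 h. At 48 h it was 0.67, 0.64 and -0.57. Replicate 3 was on another lane than replicates 1 and 2 at both times. At 3 h it was on lane 4 and they on lane 3. At 48 h it was on lane 1, the lane of all control 0 h libraries, and they on lane 2. The part of lane in this disagreement was not tested. *Myc* averaged 16619 normalized counts at 3 h, 4997 at 24 h and 5097 at 48 h, and *Ccnd3* 18338, 7331 and 9962. *Cd8a* had 54.0, 432 and 12653 normalized counts in the 3 libraries at 3 h. Replicate 3 there also stood above the others in *Cd8b1* and *Cd4*, so 3 h means of such genes rest on it.

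The change from 0 h to 24 h was tested against that of WNK1-deficient thymocytes as an interaction. The WNK1-deficient libraries at 0 h were all on lane 2. Those at 24 h were on lane 3 (replicates 1 and 2) and lane 4 (replicate 3). Among the groups of this test, lane at 0 h therefore cannot be told apart from genotype. The sex of the WNK1-deficient mice was not examined. The interaction test was run without a lane term, and the fit with one is given at the end of this paragraph. The interaction passed for 87 of 13499 genes (0.644%), 41 with a larger and 46 with a smaller value in control thymocytes. Of the 2281 rises 1340 were also called higher without WNK1, and of the 2384 falls 1327 were called lower, where 15.8% of all genes were higher and 14.6% lower at 24 h. *Nr4a1* rose by 8.18 in control and by 3.13 in WNK1-deficient thymocytes (difference 5.05 ± 0.48, adjusted p = 1.03e-05). WNK1-deficient cells had more *Nr4a1* before injection, with a mean of 99.9 ± 22.3 normalized counts, and less after it, with 878 ± 162. *Cd69*, with 2706 ± 581 normalized counts at 24 h and 3147 ± 570.1 at 0 h in WNK1-deficient cells (SD, n = 3 and 4), did not pass the test there, although it rose in control thymocytes, with 1013 ± 360 at 24 h and 63.9 ± 12.4 at 0 h (SD, n = 3 each), and the difference of the changes was 4.14 ± 0.44, adjusted p = 4.22e-05. Other members of the lists that passed were *Egr1*, *Nab2*, *Dusp5*, *Tcf7*, *Ccnd3* and *Cxcl10* with a larger value in control and *Cd3d* and *Dnmt3a* with a smaller one. No mitosis or replication gene passed the interaction test, although the medians of these lists were 1.24 and 0.66 in control and 0.45 and -0.20 in WNK1-deficient thymocytes. With lane as a covariate the interaction passed for 7 genes, *Nr4a1* (5.24, adjusted p = 0.0112) and *Cd69* (4.21, adjusted p = 0.0274) among them, whereas *Egr1*, *Nab2*, *Dusp5*, *Tcf7*, *Ccnd3*, *Cxcl10*, *Cd3d* and *Dnmt3a* were not called. When each library was left out in turn, in 13 fits, *Tcf7* and *Dnmt3a* lost the call in 11, *Dusp5* in 9, *Cd3d* in 5, and *Nab2* and *Ccnd3* in 2 each.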

How the data were processed

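RNA of sorted thymocytes was read as stranded polyA libraries. Per the paper's methods and the submitters' processing notes, reads were trimmed with Trimmomatic 0.36, aligned to GRCm38 with STAR 2.5.2a, counted per gene with RSEM 1.2.31 and scaled in DESeq2 1.18.1 (R 3.4.1). The authors deposited a signal for each gene and library: the estimated count, rounded, divided by a size factor of the library. Whole reads were recovered from the steps between low values (tolerance 0.001) for 23 of 25 libraries, including all 6 compared here, and only the alternatives with edgeR 4.0.16 and DESeq2 1.42.0 used them.

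Genes with a mean of at least 10 over the 6 libraries, off X and Y, were tested with limma 3.58.1 (R 4.3.3) on log2(value + 1). Means of 8 groups were fitted over 25 libraries with a trended prior, with no covariate, and p-values were adjusted by Benjamini and Hochberg over 13499 genes at 0.05. Log2 changes understate those of low genes. The interaction is the 24 h change in control minus that in WNK1-deficient thymocytes. Scripts were tested on simulated data. Figures were drawn with matplotlib 3.10.9 in Python 3.11.15. Symbols were matched for 12535 of 13499 genes, and 941 genes of unknown position were kept.

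Genes named are the 15 largest rises and 15 largest falls with a mean of at least 100, non-overlapping groups and an established symbol, a list of key genes, up to 4 members of each of 29 lists together with members that moved against their list, and 5 interactions in each direction. Other genes named to illustrate a list, to say where a call was lost, and *A430093F15Rik*, were chosen after their values were seen. The members and lists were chosen with earlier results of these data known. The lists hold 685 entries, of which 640 were tested. *Noc2l*, *Hmgcs1*, *Bcl2a1a*, *Bcl2a1d*, *Psmb9* and *Kcnq1ot1* were not analysed here, and some withheld items are not reported here. Libraries are from separate mice of 1 experiment. Alternatives changed the pseudocount, the filter, the scaling, the prior, the libraries fitted, the replicate block, the lane term or the tool, or left out 1 library.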

Additional observations from a re-analysis of the deposited data

Results flagged for a closer look

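The differences below are those between the 24 h change of control and that of WNK1-deficient thymocytes that passed the interaction test and were largest in either direction. They are tested differences, in log2 units, control minus WNK1-deficient. *Nr4a1* (5.05) and *Cd69* (4.144) are described above. *H2-Q2*, an MHC class I gene that shares reads with near-identical copies, differed by 5.147, with 729.5 ± 316 normalized counts at 24 h and 63.6 ± 14.2 at 0 h in control cells, and 172 ± 64.5 at 24 h and 548 ± 139 at 0 h in WNK1-deficient cells (SD, n = 3, and 4 for WNK1-deficient cells at 0 h). *Col27a1*, a collagen gene, differed by 3.661, where control cells had 68.3 ± 57.3 at 24 h and 191 ± 42.0 at 0 h, and WNK1-deficient cells 13.2 ± 3.94 at 24 h and 615 ± 182 at 0 h. *Pdcd1lg2*, which encodes the PD-1 ligand PD-L2, differed by 3.507. Its means at 24 h were 302 ± 174 in control and 320.3 ± 45.6 in WNK1-deficient cells, and those at 0 h were 1.52 ± 1.80 in control and 28.7 ± 8.16 in WNK1-deficient cells.

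In the other direction, *Adamtsl2* differed by -4.616, *Pdgfa*, a growth factor gene, by -4.455, *Tbkbp1* by -4.433, *Fam131a* by -3.006 and *Trgc3*, a γ chain constant region with near-identical copies, by -2.452. For *Adamtsl2*, *Pdgfa*, *Tbkbp1* and *Fam131a* the 0 h mean was higher in control than in WNK1-deficient cells. *Fam131a* had 56.7 ± 12.8 at 24 h and 456 ± 126 at 0 h in control cells, and 38.0 ± 16.3 at 24 h and 35.9 ± 9.13 at 0 h in WNK1-deficient cells. Of the 10 genes, 3 were called under all 28 alternatives, *Nr4a1*, *Cd69* and *Pdgfa*. The other 7 were not called with lane as a covariate. When each library was left out in turn, in 13 fits, *Col27a1* lost the call in 9, and *Tbkbp1* and *Trgc3* in 3 each. Among the groups of 4 libraries of these 10 genes, 1 library lay far from the others, that of WNK1-deficient replicate 1 at 0 h for *Tbkbp1*, with 48.41 normalized counts where the other replicates had 124 to 131. Chance alone gives such a gap in about 0.05 of groups.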

How the results depend on the processing

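Counts of calls kept within 1.5 times of 2281 higher and 2384 lower under every alternative but those given here. With lane as a covariate 1092 genes were higher and 961 lower. Leaving out 1 library gave 1553 to 2349 higher and 1553 to 2453 lower, the lowest of each without 24 h replicate 1. The count of genotype differences (87) was less stable. It was 431 with only the groups compared, 7 with lane as a covariate, 488 with DESeq2 and 36 to 323 when 1 library was left out (36 without WNK1-deficient 24 h replicate 1, 323 without control 24 h replicate 2, and 141 without control 24 h replicate 3). Replicate numbers did not pair the samples: same-numbered libraries had correlations of -0.093, 0.077 and 0.183. With the replicate block 2186 genes were higher, 2237 lower and 59 differed by genotype.

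Of 168 called genes that the rule named, 97 were called in their direction under all 21 alternatives. Sign changes came only with lane as a covariate, where no changed value passed the test: *Ccnd2* 0.45, *Mki67* -0.15, *Ccna2* -0.015, *Cdc25c* -0.093, *Mxd3* -0.46, *Gtse1* -0.32, *Itgae* 0.067, *Oas3* -0.037, *Ifit2* -0.40 and *Cxcl10* -0.56. The cause was not tested. Depth limits genes near 0 in one group, such as *Il18r1* and *Trac*, whose fitted changes depend on the pseudocount. With 3 mice a group, in 1 experiment, with lanes and sexes that follow the groups, the p-values measure only the spread between these mice.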

Other observations

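Some further groups of genes stood out when all calls were read through. They were chosen after their values were seen, so their shared direction is part of the choice. Abundant genes of the actin cytoskeleton were higher at 24 h. *Tmsb10*, which binds actin monomers, had 143379, 205334 and 51704 normalized counts at 24 h, against 12916, 8319 and 5331 at 0 h, and *Lcp1*, which bundles filaments, had 72193, 81296 and 50256 normalized counts at 24 h, against 8787, 8942 and 7504 at 0 h. Both were higher in every injected mouse than in any uninjected one, with log2 changes of 3.79 ± 0.41 and 2.99 ± 0.19. *Actb* (1.39), *Actg1* (1.42), *Vim* (3.07), *Cotl1* (2.47), *Cnn2* (2.76), *Tpm4* (3.53), *Gsn* (3.41), *Evl* (4.33) and *Myh9* (1.11) rose as well, and all 11 were called with lane as a covariate.

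Inhibitory receptors changed in opposite directions. *Pdcd1*, which encodes PD-1, had 18720.5, 26248 and 6671 normalized counts at 24 h, against 586, 573 and 437 at 0 h, *Btla* rose by 6.85 and *Cd160* by 3.65, whereas *Ctla4* had 152, 118 and 575 normalized counts at 24 h, against 3039.5, 3092 and 3316 at 0 h (log2 change -3.85 ± 0.59). Among kinases near the receptor, *Zap70* had 8932, 12077 and 5280.4 normalized counts at 24 h, against 1884, 2100.0 and 1711 at 0 h and rose by 2.13, while *Syk*, its relative used by the pre-TCR, had 1234, 1813 and 2219 normalized counts at 24 h, against 3597, 3821 and 4093 at 0 h and a log2 change of -1.17 ± 0.27. *Txk* (3.04) rose and *Lck* (-0.80) fell. *Lat* (-0.84), which encodes an adaptor and not a kinase, fell as well. Neither of these falls was called with lane as a covariate. Inhibitors of RAS signals rose, *Spry4* with 240.0, 339 and 80.7 normalized counts at 24 h, against 1.17, 1.06 and 2.12 at 0 h (log2 change 6.29 ± 0.53), *Rasa2* by 2.39, *Spred2* by 1.43 and *Spred1* by 1.02. The groups overlapped for *Spred1*, whose call was lost in 3 of the fits that left out 1 library. Adhesion genes known from epithelia fell, *Cdh1* (E-cadherin) with 169, 113 and 610.2 normalized counts at 24 h, against 3452, 4737 and 4289 at 0 h, *Itgb4* with a log2 change of -4.63, *Mpzl2* of -4.28 and *Epcam* of -2.10. *Epcam* is itself one of the epithelial markers given above and makes up most of their sum, and the part of epithelial cells in these genes was not tested. *Rag1*, the locus disrupted in all these mice, still gave reads, with 170.2, 143 and 5286 normalized counts at 24 h, against 13541, 16416 and 27459 at 0 h (log2 change -5.17 ± 0.92), a pattern like that of *Rag2*.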
